A study of Mus musculus with 7 samples.

Results

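The tissue residency and egress genes are 9 genes that set whether a lymphocyte stays in a tissue or leaves it: Itga1, Itgae, Cd69, Cxcr6, Zfp683, Rgs1, S1pr1, S1pr5 and Klf2. They were taken by name from the 31253 genes of the deposited matrices, and all 9 were found. Their levels were read in 12811 of 49671 lung cells, namely 3813 NK cells, 168 innate lymphoid cells, 4258 CD4 T cells, 3628 CD8 T cells and 944 gamma-delta T cells. The genes were chosen by name with a measured value of these data already known, a higher Itga1 level (CPM) in NK cells of Smad4iko lungs, so that difference is described below without a test.

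A lymphocyte leaves a tissue by following sphingosine 1-phosphate (S1P), which is abundant in blood and lymph, with the receptors S1PR1 and, in NK cells, S1PR5. The transcription factor KLF2 maintains S1pr1, and the surface protein CD69 binds S1PR1 and takes it off the membrane. Cells that stay hold on to the tissue with the integrin chains CD49a (Itga1, which binds collagen) and CD103 (Itgae, which binds E-cadherin on epithelium), and are placed there by CXCR6, the receptor for CXCL16. TGF-beta, whose signals the SMAD4 protein relays to the nucleus, is known to induce CD103 in T cells, and the repressor Hobit (Zfp683) acts in resident NK-like and memory CD8 cells.

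Lungs of 3 Smad4fl/fl and 4 Smad4iko mice were compared, each mouse as 1 library of droplet-based 3' single-cell RNA sequencing. Smad4iko mice were Smad4fl/fl;Rosa26-creERT2: both alleles of Smad4 were floxed, and creERT2, a Cre that tamoxifen activates, was driven from Rosa26, a locus active in nearly all cell types, so deletion was not limited to lymphocytes. Controls were Cre-negative floxed littermates, and mice of both genotypes had 5 injections of tamoxifen into the peritoneum at 75 mg/kg from postnatal day 21 to 26. Peripheral lung was taken at 8 weeks of age.

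Libraries held 46449235 to 66557262 unique molecular identifiers (UMIs), and 6378 to 8142 cells of each were kept. Any pair of libraries shared 9 to 23 cell barcodes. Smad4iko 3 and 4 lay beyond the other 5 libraries on the first principal component of the NK, CD4, CD8 and gamma-delta T gates. In gamma-delta T cells they lay close to Smad4iko 1 and 2 (27.4 and 24.9 beside 16.3 and 18.7), with controls from -65.7 to -5.76. The plot of fitted log2 differences gives the members tested in these gates with and without Smad4iko 3 and 4. Smad4fl/fl 3 and Smad4iko 3 came from females, as read from Xist and from 0 UMIs of the Y-linked Ddx3y, and the other 5 mice were male by the same genes. Smad4fl/fl 1 held few of these cells, with 176 NK and 28 gamma-delta T cells, and lay at the opposite end of that component. Each library is 1 mouse.

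Cell types were set by marker genes that include none of the 9. CPM are UMIs of a gene scaled to the total UMIs of that cell type in a library, and differences between genotypes were tested with edgeR on UMIs summed per library, with adjusted p-values over all genes of the gate and a threshold of 0.05. Smad4 was read first, as a check of the labels. It was lower in every Smad4iko library than in every Smad4fl/fl library in NK, CD4, CD8 and gamma-delta T cells. In gamma-delta T cells Smad4 was 120, 112 and 86.5 CPM in Smad4fl/fl 1 to 3, against 45.4, 33.0, 38.1 and 50.6 CPM in Smad4iko 1 to 4 (log2 difference -1.17 ± 0.22 (SE), edgeR adjusted p = 0.0129). In NK cells Smad4 was 105, 103 and 107 CPM against 94.5, 98.8, 50.6 and 74.2 CPM (edgeR adjusted p = 0.700). The labels do not say which exons the floxed alleles lose, and a 3' read outside them would still be counted.

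Among the residency genes, Itga1 lies on the minus strand of chromosome 13 (mm10, chr13:114953096-115101964) and encodes the collagen-binding chain of CD49a/CD29. Among the 5 lymphocyte gates it was highest in NK cells, at 19.9 ± 12.0 CPM (SD over 7 libraries), and it was not detected in the innate lymphoid gate (0 of 168 cells, which allows a share of up to 1.79%). That gate is ILC2-like and takes no cell with a UMI of Ncr1, Klrb1c or Eomes. Innate lymphoid cells with those genes could fall in the NK gate, which was not split further. CD4 cells held 1.78 ± 0.90, CD8 cells 3.18 ± 1.5 and gamma-delta T cells 5.70 ± 1.83 CPM of Itga1, and neighbours in this order overlapped in their library ranges. Outside these gates Itga1 was 887 ± 82 CPM in endothelial cells, 70.5 ± 20.2 CPM in type 1 dendritic cells and 33.1 ± 22.5 CPM in B cells. Itga1 overlaps Pelo and Gm49395 on its own strand, and reads shared with them cannot be told apart here.

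Itgae, on the plus strand of chromosome 11 (chr11:73090583-73147446), was highest in gamma-delta T cells among lymphocytes, with 129 ± 61 CPM. CD8 cells followed with 47.2 ± 14.3 CPM, with overlapping library ranges, and CD4 cells held 9.52 ± 2.87 CPM of Itgae. NK cells had almost none (1.67 ± 0.99 CPM). Type 1 dendritic cells, for which CD103 is a defining protein, held 300 ± 67 CPM (SD over 7 libraries).

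Cxcr6 (chr9:123806475-123811760, plus strand) marked gamma-delta T cells with 490 ± 155 CPM and innate lymphoid cells with 278 ± 152 CPM, again with overlapping ranges. It was 25.1 ± 10.4 CPM in CD4, 16.8 ± 6.4 CPM in CD8 and 3.6 ± 2.38 CPM in NK cells. Zfp683 (chr4:134053838-134058996, plus strand) was at or near 0 throughout. No UMI of Zfp683 was seen in 3813 NK cells, which allows a share of up to 0.0787% of cells with a UMI, and the CD4, CD8 and gamma-delta T gates held 2, 2 and 1 UMIs.

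Cd69 (chr6:129267325-129275436, minus strand) was highest in innate lymphoid cells with 455 ± 205 CPM and lowest in NK cells with 39.3 ± 23.7 CPM, while gamma-delta T, CD8 and CD4 cells held 159 ± 103, 118 ± 59 and 96.2 ± 67.6 CPM. Rgs1 (chr1:144242296-144249242, minus strand), which shuts off signals of chemoattractant receptors, was high in innate lymphoid (559 ± 379 CPM), NK (406 ± 70 CPM) and gamma-delta T cells (356 ± 65 CPM). Rgs1 was lower in CD4 cells (103 ± 22 CPM) and CD8 cells (53.2 ± 15.7 CPM).

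Of the egress genes, S1pr1 (chr3:115710433-115715072, minus strand) was 579 ± 151 CPM in CD4, 387 ± 102 CPM in CD8 and 321 ± 72 CPM in gamma-delta T cells, and 16.3 ± 13.6 CPM in NK cells. S1pr5 (chr9:21242912-21248443, minus strand) was 82.5 ± 20.3 CPM in NK cells and between 0 and 8.31 CPM in every library of the other 4 gates, so the NK range did not touch the others. Klf2 (chr8:72319033-72321656, plus strand) was 632 ± 183 CPM in NK, 579 ± 168 CPM in CD4, 526 ± 108 CPM in gamma-delta T and 500.2 ± 149 CPM in CD8 cells, with overlapping ranges, and 38.6 ± 30.5 CPM in innate lymphoid cells. These levels are descriptions over 7 libraries, with no test between gates. CPM from 3' reads do not scale with gene length, and 1 gene is not compared here with another.

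**Figure D1:**
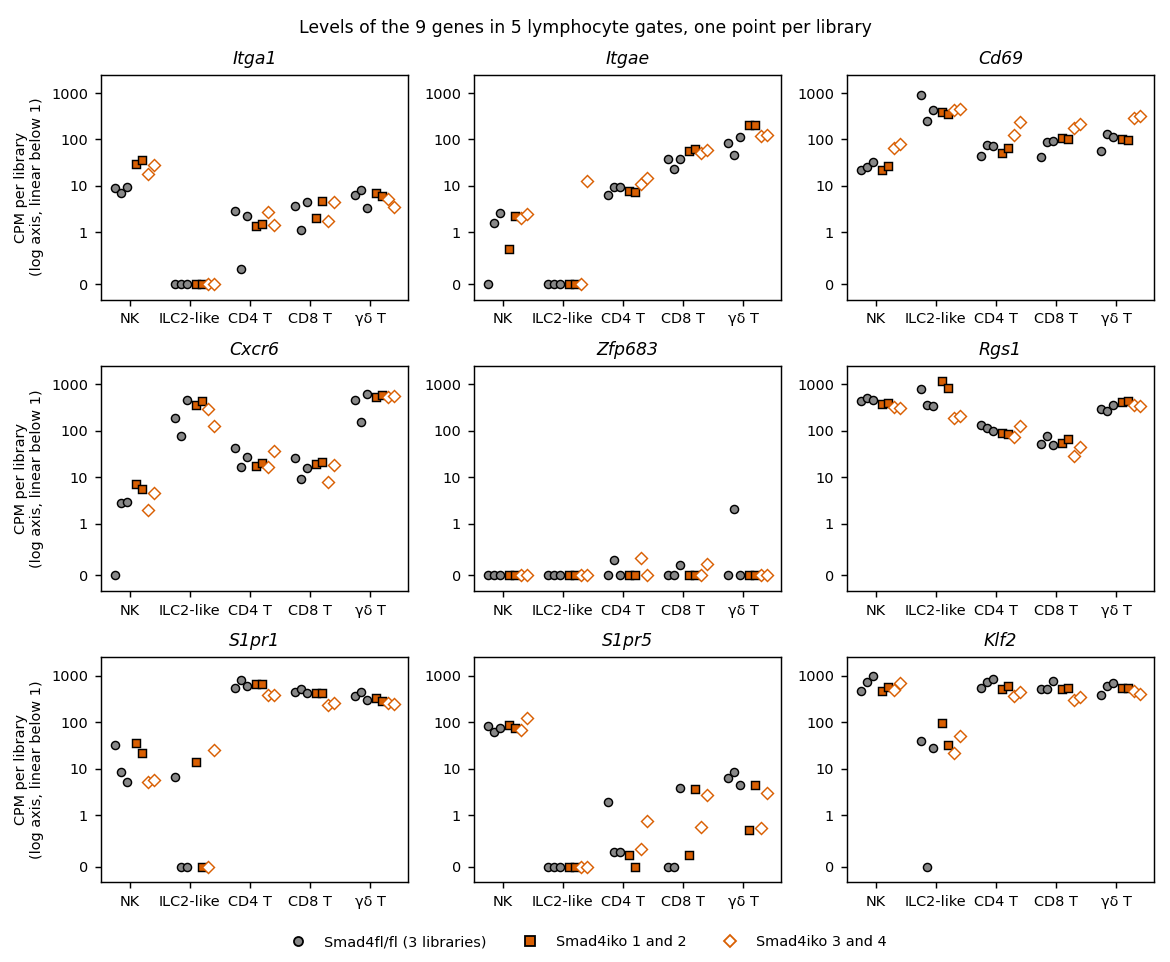
Level of each of the 9 genes (CPM, log axis that is linear below 1) in NK, ILC2-like, CD4, CD8 and gamma-delta T cells. Each point is 1 library: grey circles are Smad4fl/fl, filled squares Smad4iko 1 and 2, open diamonds Smad4iko 3 and 4. S1pr5 stands at 62.2 to 124 CPM in NK cells and at or under 8.31 CPM elsewhere, and Zfp683 is near 0 in all 5 gates.

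Which other genes follow each member was read from Pearson's r of log2 CPM over 35 profiles, 5 gates in 7 libraries, which share libraries and depth. S1pr5 was followed most closely by Adamts14, Rac3 and Cma1, with r of 0.97, 0.96 and 0.95. Itga1 was followed by Klrb1c, a gene of the NK gate, Baiap3 and Slamf7 (0.90, 0.89 and 0.89), and Itgae by Acpp, Lcn4 and Jaml (0.93, 0.92 and 0.91). Cd69 came with Zfp36l1, Adam19 and Ramp1 (0.93, 0.88 and 0.85), Cxcr6 with Tnfrsf25, Podnl1 and Septin8 (0.94, 0.92 and 0.90), and Rgs1 with Ern1, Fgl2 and Id2 (0.92, 0.91 and 0.91). S1pr1 came with Ehd3, the lymph node homing receptor gene Ccr7 and Rflnb (0.93, 0.93 and 0.92), and Klf2 with Eif5b, Pcna and Snrpd1 (0.94, 0.94 and 0.94). Zfp683 had too few UMIs for such a measure. Between members, r was 0.86 for Itga1 and S1pr5, both highest in NK cells among these 5 gates, and 0.78 for Itgae and S1pr1.

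NK cells of Smad4iko lungs held more Itga1. The level of Itga1 was 8.87, 7.18 and 9.63 CPM in Smad4fl/fl 1 to 3 and 30.1, 37.0, 17.7 and 28.5 CPM in Smad4iko 1 to 4, from 6, 18 and 58 UMIs and 89, 33, 35 and 80 UMIs. All 4 Smad4iko libraries lay above all 3 controls, as for 2.77% of the 9299 genes tested in NK cells. Group means were 8.56 ± 1.25 (SD, n = 3) and 28.4 ± 8.0 CPM (SD, n = 4), and the fitted log2 difference was 1.76 ± 0.25 (SE). The difference was 1.94 ± 0.25 without Smad4iko 3 and 4, and it lay between 1.66 and 1.94 over 18 alternatives.

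More NK cells had an Itga1 UMI. Before thinning 3.41%, 2.47% and 3.58% of NK cells of Smad4fl/fl 1 to 3 had one, against 9.28%, 9.95%, 5.10% and 8.05% in Smad4iko 1 to 4. After each cell was thinned to 1500 UMIs, with 33 shallower control and 8 shallower Smad4iko NK cells left out, the shares were 0.658%, 1.09% and 0.876%, against 4.48%, 3.66%, 2.46% and 3.88%. Both measures separated the groups. At 1000 UMIs per cell the shares overlapped, with 1.2%, 0.310% and 0.699% against 2.75%, 1.57%, 1.11% and 2.09%. In B cells the thinned share (1500 UMIs) was 0.0854% to 1.25% and the unthinned share 0.166% to 5.11% (median depth 3352 to 5282.5 UMIs per cell, against 3427 to 4754 in NK cells). The thinned NK shares of the controls lay inside the B cell range and those of Smad4iko above it, whereas the unthinned share of Smad4iko 3 lay just under the highest B cell value. In alveolar macrophages, at a median depth of 7879 to 14873 UMIs, the thinned share was 1.31% to 4.59%.

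Itga1 was also read in the other cells. In CD4 cells Itga1 was 2.89, 0.290 and 2.21 CPM in Smad4fl/fl 1 to 3 and 1.39, 1.49, 2.75 and 1.47 CPM in Smad4iko 1 to 4, and in CD8 cells it was 3.70, 1.11 and 4.42 against 2.02, 4.75, 1.78 and 4.44 CPM, so both gates overlapped. The endothelial gene Cdh5 was low in NK cells, at 11.8, 1.6 and 0.664 CPM against 1.69, 0, 1.52 and 2.85 CPM, highest in a control. Summed over the 4 endothelial markers Cdh5, Pecam1, Cldn5 and Egfl7, NK cells held 36.3 to 90.1 CPM in controls and 30.3 to 50.6 CPM in Smad4iko. All 4 were detected, most of the sum was Pecam1, which CD4 cells held at 55.6 to 109 CPM, and the part of endothelial RNA in the Itga1 level was not tested. Pelo, the gene inside Itga1, was 0, 1.6 and 0.332 CPM in control and 0.339, 1.12, 1.01 and 1.07 CPM in Smad4iko NK cells.

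Of 8 members besides Itga1, 6 passed the filter on low counts and 0 were called by edgeR, beside 0.0215% of all 9299 genes tested (2 genes). At an unadjusted p under 0.05 there was 1 of these 6, Cd69, beside 7.51% of all genes, and DESeq2 called 0 of them. Rgs1 was 436, 516 and 457 CPM in Smad4fl/fl 1 to 3 and 388, 403, 328 and 318 CPM in Smad4iko 1 to 4, so that all Smad4iko libraries lay below all controls, as for 5.73% of all genes (log2 difference -0.31 ± 0.15 (SE), edgeR adjusted p = 0.661). The Rgs1 difference was -0.23 without Smad4iko 3 and 4, the lowest libraries, and -0.18 without Smad4fl/fl 2. The thinned share of NK cells with an Rgs1 UMI also separated the groups, with 36.9% to 42.2% against 30.0% to 34.6% (two-sided exact permutation p = 0.0286, the smallest that 35 splits allow, 1 of 2 among 44 gene and gate pairs to reach it). The unthinned shares of Rgs1 overlapped, as did those at 1000 UMIs.

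S1pr5, which NK cells use to leave, overlapped between genotypes, with 82.7, 62.2 and 74.9 CPM against 89.1, 76.3, 68.4 and 124 CPM (log2 difference 0.41 ± 0.21, edgeR adjusted p = 0.685). The S1pr5 difference was 0.24 without Smad4iko 3 and 4. Klf2 in NK cells was 467, 727 and 971 CPM against 474, 574, 506 and 706 CPM (-0.27 ± 0.23, edgeR adjusted p = 0.787), and -0.45 without Smad4iko 3 and 4. S1pr1 was 32.5, 8.38 and 5.15 CPM against 36.2, 21.3, 5.06 and 5.71 CPM, with overlap (0.73 ± 0.73, edgeR adjusted p = 0.822), and 1.66 without Smad4iko 3 and 4. Cxcr6 rested on 68 UMIs in all and was 0, 2.79 and 2.99 CPM against 7.11, 5.61, 2.03 and 4.64 CPM. Itgae and Zfp683 did not pass the filter.

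NK cells with and without Itga1 were compared after thinning to 1500 UMIs, as a description. Over all libraries 86 NK cells had an Itga1 UMI and 3686 had none, and the positive cells numbered 1, 7 and 10 in Smad4fl/fl 1 to 3 and 26, 7, 11 and 24 in Smad4iko 1 to 4. Of the positive cells 0 of 86 had a Cxcr6 UMI, which allows a share of up to 3.49%, and 15 of 3686 of the others did. Without thinning the order was the other way, with a Cxcr6 UMI in 9 of 209 positive cells (4.31%) and 33 of 3604 others (0.916%), at median depths of 4715 and 4204.5 UMIs, so no order is read from these shares. With the genotypes pooled, S1pr5 was found in 17.4% of positive and 12.3% of negative cells, Klf2 in 61.6% and 56.9%, Rgs1 in 33.7% and 36.0%, and Cd69 in 10.5% and 4.61%. Most positive cells, 68 of 86, were from Smad4iko, so pooling mixes genotype with Itga1 status. In controls Rgs1 was found in 44.4% and 38.9%, Klf2 in 88.9% and 62.5%, and Cd69 in 0% and 3.65%. In Smad4iko these were 30.9% and 32.8%, 54.4% and 50.9%, and 13.2% and 5.65%. S1pr5 was found in 16.7% and 10.6% in controls and 17.6% and 14.2% in Smad4iko. Without thinning S1pr5 was found in 36.5% and 25.8% in controls and 30.1% and 32.0% in Smad4iko. No order is read from these shares. Eomes, the transcription factor of conventional NK cells, is given by genotype. In controls 2 of 18 positive cells (11.1%) and 40.0% of negative cells had an Eomes UMI, and in Smad4iko 18 of 68 (26.5%) and 29.5% did. Without thinning the control gap was absent, with 43 of 63 positive cells (68.3%) and 67.8% of negative cells. The unthinned Smad4iko shares were 54.1% and 55.2%, so no order is read for Eomes either.

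Lists of other genes linked to residency or circulation gave 0 calls in NK cells. Of 17 residency-linked genes tested, 12 were higher and 5 lower in Smad4iko (median log2 difference 0.25, beside 0.01 over all genes), and those with the smallest p were Inpp4b (2.65), Skil (-0.80) and Xcl1 (0.81), with edgeR adjusted p of 0.190, 0.446 and 0.636. The summed level of all 25 genes of this list was 4096 to 4174 CPM in controls. In Smad4iko 1 to 4 the sum was 3222, 3383, 4215 and 3964 CPM, with overlap. Inpp4b, a phosphoinositide phosphatase, was 2.96, 1.6 and 1.66 CPM against 7.79, 15.7, 14.2 and 7.49 CPM, and Skil, a repressor of SMAD signals, was 451, 436 and 282 CPM against 229, 244, 210 and 165 CPM. Of 19 circulation-linked genes 10 were higher and 9 lower (median 0.01), led by Eomes at 452, 397 and 360 CPM against 287, 246, 230 and 255 CPM (edgeR adjusted p = 0.444). Eomes is also a gene of the NK gate. Among 17 ILC1-linked genes 13 were higher (median 0.26), and among 17 genes of mature NK cells 12 were (median 0.13), both with 0 calls. Of all genes 51.8% were higher. The ILC1-linked list shares Inpp4b and Xcl1 with the residency-linked list.

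**Figure D2:**
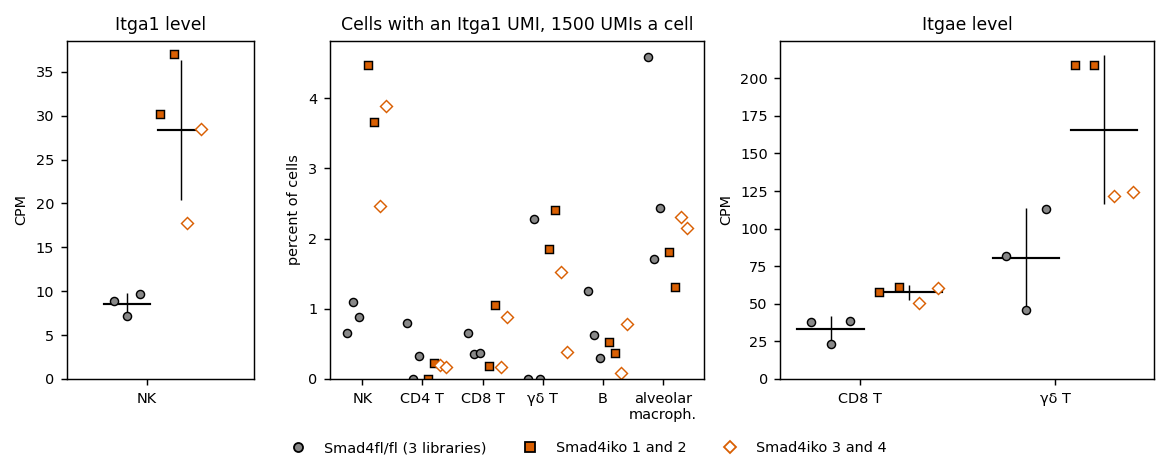
Left, Itga1 level in NK cells (CPM). Middle, percent of cells with an Itga1 UMI after thinning to 1500 UMIs in 6 gates. Right, Itgae level (CPM) in CD8 T cells and gamma-delta T cells. Each point is 1 library; black lines are group means and vertical lines 1 SD. Itga1 separates the groups in NK cells (7.18 to 9.63 against 17.7 to 37.0 CPM), and Itgae in CD8 and gamma-delta T cells.

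In gamma-delta T cells Itgae rose. Its level was 82.0, 45.7 and 113 CPM in Smad4fl/fl 1 to 3 and 209, 209, 122 and 124 CPM in Smad4iko 1 to 4. All Smad4iko libraries lay above all controls, as for 8.43% of the genes tested, and Smad4iko 3 and 4 lay close to Smad4fl/fl 3. The log2 difference was 1.11 ± 0.30 (SE, edgeR adjusted p = 0.0464). Itgae was the only 1 of 6 members tested in this gate that was called, beside 6.33% of all 7320 genes (463 genes), and 1 call in 6 genes is too few to set against that share.

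The call stood close to the threshold. It ended when any 1 of Smad4fl/fl 1, Smad4fl/fl 2, Smad4iko 1, Smad4iko 2 or Smad4iko 3 was left out (adjusted p from 0.0623 to 0.141, with log2 differences from 0.86 to 1.23) and held without Smad4iko 3 and 4 together (1.44, adjusted p = 0.0268). Unthinned, 25.0%, 11.2% and 34.4% of gamma-delta T cells had an Itgae UMI in Smad4fl/fl 1 to 3 and 63.6%, 52.4%, 44.7% and 40.5% in Smad4iko 1 to 4. At 1500 UMIs per cell the shares overlapped, with 14.3%, 4.55% and 13.6% against 21.6%, 16.9%, 15.7% and 12.0% (two-sided exact permutation p = 0.171), whereas at 1000 UMIs they did not, with 3.37% to 8.00% against 11.2% to 19.0%. B cells had an Itgae UMI in 0% to 0.261% of thinned and 0.0830% to 0.519% of unthinned cells.

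Marker genes of one kind of gamma-delta T cell also differed between genotypes in this gate. Lung gamma-delta T cells include a Cd27-positive kind with cytotoxic genes. All 8 genes of a Cd27-positive list were lower in Smad4iko and 4 were called, namely Nkg7, Ccl5, Klrd1 and Cd27 itself. Cd27 was 240, 347 and 217 CPM against 68.4, 70.6, 50.0 and 32.7 CPM (log2 difference -2.2, edgeR adjusted p = 0.0032). The summed level of the list was 4549 to 8153 CPM in controls and 1482 to 2483 CPM in Smad4iko. The list was not lower in gamma-delta T cells alone. In CD4 cells all 7 genes tested were lower, with 0 called. The sum there was 710 to 778 CPM in controls and 346 to 529 CPM in Smad4iko. In CD8 and NK cells the sums overlapped between genotypes. All 8 genes were detected, and the list was added after the values of gamma-delta T cells were seen.

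Their part in the call of Itgae was not tested. The 3 markers of B cells, in which Itgae was 0.455 ± 0.208 CPM, summed to 16.6 to 51.5 CPM in controls and 61.6 to 88.9 CPM in Smad4iko. In type 1 dendritic cells Itgae was 300 ± 67 CPM. Their 5 markers summed to 98.6 to 335 CPM in control and 14.9 to 78.5 CPM in Smad4iko gamma-delta T cells. Irf8, one of these markers, is also in the mature NK list. These marker lists were chosen after the values were seen, and their part in the Itgae level was not tested.

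Cxcr6 did not pass the test in gamma-delta T cells. Its level was 454, 156 and 609 CPM in Smad4fl/fl 1 to 3 and 531, 581, 543 and 556 CPM in Smad4iko 1 to 4, with Smad4fl/fl 2 low, and the groups overlapped (log2 difference 0.58 ± 0.31, edgeR adjusted p = 0.280). Its thinned share separated the groups, with 42.9%, 13.6% and 45.6% against 47.5%, 48.2%, 46.7% and 53.3% (two-sided exact permutation p = 0.0286, the smallest possible), and so did the unthinned share, but not the share at 1000 UMIs (p = 0.171, exact permutation). B cells had a Cxcr6 UMI in 0% to 0.261% of thinned cells.

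A sequence of each of Itga1 and Cxcr6 is shown because these are the members, of the 4 with a promoter in the RefSeq tables used here (Itga1, Cxcr6, S1pr5 and Klf2; GRCm38.p6), that hold the SMAD box CAGAC on either strand within 250 bases before the start. The strand is that of the gene, the runs are 17 bases long and the box, or its reverse complement GTCTG, is in capitals.
Itga1 (chr13:115102134-115102150, minus strand): ttgcgaGTCTGatccat
Cxcr6 (chr9:123806458-123806474, plus strand): gaaacaCAGACcacatc
The first base of the box lies 180 bases before the start of Itga1 and 13 bases before that of Cxcr6, counted from the RefSeq start, which for Cxcr6 is not the start of the gene coordinates given above. Of 32851 promoters of the same length 42.2% hold at least 1 such box, and 2 of the 4 members do. The T-box motif AGGTGTGA, present in 1.12% of promoters, was in none of the 4 windows. The Klf motif CACCC, present in 52.0%, was found at 2 places in Itga1, 2 in S1pr5 and 1 in Klf2. The Runx motif TGTGGT, present in 14.0%, was found in Cxcr6 on the opposite strand, from 10 bases before the start, where it overlaps the box. All motifs were searched on both strands, and a match is a description, not a binding site.

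Egress genes of gamma-delta T cells did not pass the test. S1pr1 was 372, 453 and 299 CPM in Smad4fl/fl 1 to 3 and 328, 281, 264 and 248 CPM in Smad4iko 1 to 4 (log2 difference -0.31 ± 0.19, edgeR adjusted p = 0.359), with overlap, or -0.20 without Smad4iko 3 and 4. Klf2 was 385, 611 and 686 CPM against 555, 556, 476 and 411 CPM (-0.09 ± 0.20, edgeR adjusted p = 0.853). Rgs1 was 303, 262 and 360 against 428, 447, 357 and 337 CPM (0.45 ± 0.17, edgeR adjusted p = 0.130).

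Of the lists, 17 circulation-linked genes were tested in gamma-delta T cells, of which 14 were lower and 3 higher in Smad4iko (median log2 difference -0.83, beside -0.01 over all genes). Those called were both lower, Ccr7, a receptor for homing to lymph nodes (-1.66), and Klf3 (-0.88), with edgeR adjusted p of 0.0233 and 0.0268. Of 19 residency-linked genes 9 were higher and 10 lower (median -0.36), with Itgb1, the partner chain of CD49a, called higher (1.09, edgeR adjusted p = 0.0088) and Litaf (-1.57) and Ccr9 (-1.80) called lower (0.0412 and 0.0497). Itgb1 was 189, 251 and 300 CPM against 476, 467, 469 and 586 CPM. Of 8 genes of S1P handling 6 were higher, with 1 called, the G-protein gene Gnai2 (0.56, edgeR adjusted p = 0.0415). Of 16 ILC1-linked genes 12 were lower (median -0.91), with Nt5e, Il21r, Rgs2, Kit and Spry2 called lower and Ly6a called higher. Of 10 genes of mature NK cells 8 were lower (median -1.36), with the cytotoxic genes Gzma and Prf1, Irf8 and Klf3 called lower and Emp3 called higher. The Cd27-positive list was lower as well, but the lists share genes. Tbx21, Eomes and Ly6c2 are in it and in both the circulation-linked and the mature NK lists, and Klf3 is in both of the latter. The part of the Cd27-positive list in the other lists was not tested.

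In CD8 T cells Itgae was again higher. It was 37.9, 23.5 and 38.7 CPM in Smad4fl/fl 1 to 3 and 57.7, 61.4, 50.4 and 60.7 CPM in Smad4iko 1 to 4. All 4 Smad4iko libraries lay above all 3 controls, as for 1.68% of the 9441 genes tested. The log2 difference was 0.92 ± 0.17 (SE), with an edgeR adjusted p of 0.858 in a gate where 0 genes were called (0% of all genes, beside 4.88% or 461 genes with an unadjusted p under 0.05) and a DESeq2 adjusted p of 0.0117. Itgae was the only member that DESeq2 called in this gate, where it called 12 genes. Without Smad4iko 3 and 4 the difference was 0.85 ± 0.18 (edgeR adjusted p = 0.478).

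Splitting CD8 cells by Ccl5 and S100a4 into experienced cells, with a UMI of either, and naive-like cells, with neither and a UMI of a naive-cell gene such as Ccr7 or Lef1, gave these values. In naive-like cells Itgae was 38.7, 30.2 and 47.7 CPM against 67.0, 67.9, 53.1 and 64.4 CPM (0.82 ± 0.16), without overlap, as for 1.91% of 8618 genes, and in experienced cells 36.0, 8.86 and 27.9 against 33.8, 36.9, 44.6 and 54.5 CPM (1.06 ± 0.36), with overlap and edgeR adjusted p of 0.648 and 0.906. Without Smad4iko 3 and 4 these differences were 0.79 and 0.62. Experienced cells were 19.7% to 40.4% of the gate in controls and 18.4% to 32.1% in Smad4iko, with overlap. Unthinned, 11.3% to 22.6% of CD8 cells of the controls and 23.6% to 31.2% of Smad4iko had an Itgae UMI (two-sided exact permutation p = 0.0286), while the thinned shares of 3.32% to 6.49% and 5.76% to 9.97% overlapped (p = 0.229, exact permutation), and those at 1000 UMIs did not (2.39% to 3.56% and 4.99% to 5.96%).

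The difference of Itgae between genotypes was not shown to depend on the gate. It was 0.26 smaller on the log2 scale in CD8 than in gamma-delta T cells (limma adjusted p = 0.698, 7 libraries) and 0.84 smaller in CD4 than in gamma-delta T cells (adjusted p = 0.483). In CD4 cells Itgae was 6.42, 9.28 and 9.59 CPM in Smad4fl/fl 1 to 3 and 7.88, 7.44, 11 and 15 CPM in Smad4iko 1 to 4 (log2 difference 0.39 ± 0.32, edgeR adjusted p = 0.802), and it was -0.12 without Smad4iko 3 and 4.

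Cd69 was highest in Smad4iko 3 and 4 in NK, CD4, CD8 and gamma-delta T cells. In NK cells it was 22.2, 25.1 and 32.2 CPM in Smad4fl/fl 1 to 3 and 22.3, 26.9, 66.8 and 79.5 CPM in Smad4iko 1 to 4, and in gamma-delta T cells 56.8, 133 and 115 against 102, 97.6, 284 and 326 CPM. In CD4 cells it was 45.0, 77.7 and 73.2 against 50.3, 65.8, 123 and 238 CPM, so Smad4iko 1 and 2 lay within the control range in all 3 gates. The fitted log2 differences of 0.97, 1.02 and 0.99 in NK, gamma-delta T and CD4 cells had edgeR adjusted p of 0.646, 0.188 and 0.789, and they were -0.20, -0.05 and -0.16 without Smad4iko 3 and 4. In CD8 cells all Smad4iko libraries were above all controls, as for 1.68% of the 9441 genes tested, with 41.6, 90.1 and 93.3 against 108, 101, 175 and 219 CPM. The log2 difference there was 1.14 ± 0.38 (edgeR adjusted p = 0.858), and it was 0.45 ± 0.28 without Smad4iko 3 and 4.

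Genes induced by activation or tissue digestion were read beside Cd69, itself an early activation gene. The 18 genes of an immediate early and dissociation list summed to 7561 to 8010 CPM in control NK cells, 5564 and 5858 CPM in Smad4iko 1 and 2 and 10770 and 13240 CPM in Smad4iko 3 and 4, with all 18 detected. In CD8 cells the sums were 4586 to 5757, 4277 and 4603, and 6691 and 6858 CPM. In gamma-delta T cells they were 7099 to 7811, 4663 and 4650, and 7408 and 8607 CPM. B cells followed too, with Cd69 UMIs in 15.5% to 24.9% of thinned control cells, 17.8% and 15.5% in Smad4iko 1 and 2, and 38.6% and 41.5% in Smad4iko 3 and 4. The part of this shift in the Cd69 levels was not tested.

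S1pr1 and Klf2 in CD4 and CD8 cells were lowest in the same libraries. In CD4 cells S1pr1 was 552, 796 and 615 CPM in Smad4fl/fl 1 to 3 and 666, 650, 380 and 391 CPM in Smad4iko 1 to 4, and in CD8 cells 438, 512 and 420 against 424, 424, 235 and 257 CPM. Smad4iko 3 and 4 were the lowest libraries in both gates. The log2 differences were -0.24 ± 0.22 in CD4 and -0.36 ± 0.19 in CD8 cells (edgeR adjusted p of 0.817 and 0.858), and 0.03 and -0.11 without these 2 libraries. Klf2 was 533, 734 and 859 CPM against 510, 596, 366 and 456 CPM in CD4 cells (-0.46 ± 0.20, edgeR adjusted p = 0.789) and 512, 524 and 756 against 516, 551, 299 and 344 CPM in CD8 cells (-0.38 ± 0.19, edgeR adjusted p = 0.858). Without Smad4iko 3 and 4 the Klf2 differences were -0.33 and -0.15.

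In experienced CD4 cells, those with a Ccl5 or S100a4 UMI, Klf2 was 495, 665 and 761 CPM in Smad4fl/fl 1 to 3 and 482, 486, 353 and 472 CPM in Smad4iko 1 to 4, all Smad4iko below all controls, as for 4.57% of 7458 genes (-0.47 ± 0.18, edgeR adjusted p = 0.673; -0.42 without Smad4iko 3 and 4). S1pr1 did so in experienced CD8 cells, with 366, 412 and 372 against 330, 351, 209 and 210 CPM, as for 5.04% of 7598 genes (-0.40 ± 0.18, edgeR adjusted p = 0.906). Smad4iko 3 and 4 were the lowest there, and the difference was -0.18 without them. In CD4 cells 6 members were tested and 0 called, beside 0% of 9440 genes; 1 of the 6, Klf2, had an unadjusted p under 0.05, beside 6.07% of all genes, and DESeq2 called 0 members. Cxcr6 and Rgs1 overlapped between genotypes in CD4 and CD8 cells, with Cxcr6 at 16.5 to 41.8 CPM in CD4 and 7.89 to 25.5 CPM in CD8 cells.

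**Figure D3:**
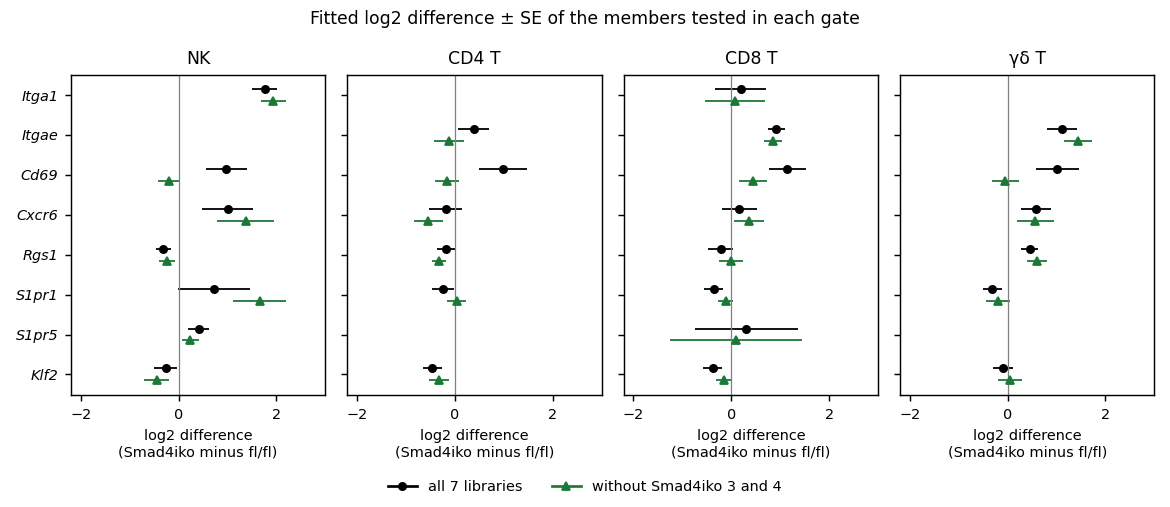
Fitted log2 difference (Smad4iko minus Smad4fl/fl) ± SE of the members tested in NK, CD4, CD8 and gamma-delta T cells, over all 7 libraries (circles) and without Smad4iko 3 and 4 (triangles). Itga1 in NK cells and Itgae in CD8 and gamma-delta T cells are 1.94, 0.85 and 1.44 without these libraries, and Cd69 moves to or below 0 in NK, CD4 and gamma-delta T cells.

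Innate lymphoid cells were few, with 39, 16 and 24 cells in Smad4fl/fl 1 to 3 and 44, 15, 11 and 19 in Smad4iko 1 to 4, so members are given there as values. The gate asks for markers of group 2 innate lymphoid cells such as Gata3, Il1rl1 and Rora. It takes no cell with a UMI of Ncr1, Klrb1c or Eomes. Cd69 was 891, 246 and 442 CPM against 385, 349, 427 and 446 CPM, Cxcr6 186, 75.7 and 456 against 358, 444, 299 and 127 CPM, and Rgs1 798, 360 and 335 against 1166, 856, 192 and 204 CPM. All 3 overlapped between genotypes. Klf2 rested on 38 UMIs and S1pr1 on 6, and S1pr5, Itga1 and Zfp683 had none.

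Shares of the gates among kept cells overlapped between genotypes in all 5 gates. NK cells were 2.22%, 9.18% and 16.5% in Smad4fl/fl 1 to 3 and 9.13%, 2.90%, 5.54% and 9.33% in Smad4iko 1 to 4 (two-sided exact permutation p = 0.6). Gamma-delta T cells were 0.353%, 1.26% and 1.80% against 2.54%, 1.27%, 2.42% and 3.89% (exact permutation p = 0.114, adjusted 0.571 over 5 gates). As a share of the cells of the 5 gates together, gamma-delta T cells were 2.66%, 4.5% and 4.55% against 8.22%, 7.53%, 11.2% and 11.9%, above all controls in all 4 Smad4iko libraries (exact permutation p = 0.0286, adjusted 0.143).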

How the data were processed

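Droplet-based 3' single-cell RNA sequencing (150 bp paired-end) was done on 7 mouse lungs, 3 Smad4fl/fl and 4 Smad4iko. The authors deposited raw UMI counts per gene and barcode, 1 matrix per library, made with Cell Ranger 6.1.1 per the file headers; fastp, UMI-tools and build mm10 are named in the submitters' processing notes. The lowest barcode held 500 UMIs. The members and lists were chosen with earlier results of these data known.

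Barcodes needed 300 genes, 600 UMIs and no more than 20% of UMIs from mitochondrial genes (50955 of 55671 barcodes), and 1284 doublets called by Scrublet (scanpy 1.11.5, expected rate 6%) were removed. Gates used raw UMIs of marker genes, none of them a member, and 432 cells that met more than 1 gate were left out. T cells needed 2 UMIs of Cd3d, Cd3e or Cd3g, then Cd4, Cd8a or Cd8b1, or Trdc with a second gamma-delta receptor UMI; NK cells needed no CD3 UMI and 2 UMIs of Ncr1, Klrb1c or Eomes. The gamma chain constant and variable genes were matched under the names the files use, Trgc1, Trgc2, Trgc4 and Trgv6.

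UMIs were summed per library and gate and fitted with edgeR 4.0.16 (R 4.3.3; filterByExpr, TMM, quasi-likelihood test, genotype only), with Benjamini-Hochberg adjustment over all genes of the gate. Gates with under 15 cells in a library were not tested. Shares of cells with a UMI used each cell thinned to 1500 UMIs and the exact permutation test over genotype labels. Differences between gates used limma 3.58.1. Alternatives used DESeq2 1.42.0, no TMM, no filter, other gates, covariates and libraries left out. The fit was tested on simulated counts.

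Named genes were all members, in each list and gate described up to 3 genes with the smallest p and those called, the 3 genes most like each member among genes of at least 10 mean CPM, and Smad4. A gene of the circulation-linked list and a split of the gamma-delta T gate are not reported here. Cdh5 and Pelo were named after their values were seen. Intervals and limits from a count of 0 cover counting error only.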

Additional observations from a re-analysis of the deposited data

Results flagged for a closer look

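Of 34 sets of 4 Smad4iko values checked, 1 held a library far from the others. Itga1 in CD4 T cells was 2.75 CPM in Smad4iko 3 and between 1.39 and 1.49 CPM in the other 3 Smad4iko libraries. Such a gap turns up by chance in about 1 of 20 sets. It rests on 8 UMIs, and Smad4fl/fl 1 lay higher, at 2.89 CPM.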

How the results depend on the processing

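Itga1 in NK cells and Itgae in CD8 cells kept their direction under all 18 alternatives (log2 differences 1.66 to 1.94 and 0.76 to 1.02). The number of members called in gamma-delta T cells was 1, and 0 without TMM, with sex as a covariate, with strict gates, with equal cells per library and with a replicate block; it was 0 to 1 when a library was left out and 3 with no filter on low counts (Itgae, Cd69 and Cxcr6). The adjusted p of Itgae there was 0.0813, 0.0604, 0.0689, 0.0810 and 0.0706 in the first 5 of these. With no filter, 1 member was called in NK (Cd69), experienced CD4 and experienced CD8 cells, and 2 in naive-like CD8 cells, in place of 0. DESeq2 called 1 member in CD8 cells, in place of 0. The share of all genes called is not given beside these counts, so nothing about the members is read from them. Genes called in gamma-delta T cells ranged from 155 to 1011. Without Smad4iko 3 and 4, and with a covariate for them, Cd69 was -0.16 and -0.15 in CD4, -0.20 and -0.20 in NK and -0.0498 and -0.0504 in gamma-delta T cells, Itgae in CD4 cells -0.12 and -0.12, S1pr1 in CD4 cells 0.0339 and 0.0417, and Klf2 in gamma-delta T cells 0.0532 and 0.0473, all reversed. Klf2 in gamma-delta T cells also reversed without Smad4fl/fl 2 (0.0515) or 3 (0.0772) and with the replicate block (0.0378). Other reversals were Cxcr6 in CD4 (0.12 without Smad4fl/fl 1), Cxcr6 in CD8 (-0.10 without Smad4fl/fl 2, -0.0044 with strict gates), Itga1 in CD8 (-0.18 without Smad4fl/fl 2, -0.08 without Smad4iko 4, -0.0451 with the replicate block, -0.27 with strict gates), Rgs1 in CD8 (0.11 without Smad4fl/fl 2), S1pr1 in NK (-0.17 without Smad4iko 1) and S1pr5 in CD8 cells (-0.06 without Smad4fl/fl 1, -0.18 without Smad4fl/fl 2). With 1 library left out, these ranged from -0.55 to 0.12 for Cxcr6 in CD4, -0.10 to 0.53 for Cxcr6 in CD8, -0.18 to 0.62 for Itga1 in CD8, -0.29 to 0.0772 for Klf2 in gamma-delta T, -0.38 to 0.11 for Rgs1 in CD8, -0.17 to 1.44 for S1pr1 in NK and -0.18 to 5.72 for S1pr5 in CD8 cells, where the last rests on 2 control libraries without a UMI. The causes were not tested. Of the member differences recomputed, 521 kept direction and side of the threshold, 26 reversed, 10 lost a call and 7 gained one. The 521 include 18 of Itga1 in NK cells, which have no p. These were counted as kept because they moved by less than 1 SD of the Smad4iko log2 CPM. Without TMM the members' differences shifted by a median of -0.0878 in NK, -0.111 in CD4, -0.129 in CD8 and -0.116 in gamma-delta T cells. Deviations of same-numbered libraries from their group means had r from -0.0961 to 0.259. In NK, CD4, CD8 and gamma-delta T cells r was positive for numbers 1 and 3 and negative for number 2. Whether the numbers pair the mice cannot be told from this. No share of cells with a UMI and no gate share among kept cells passed after adjustment, where 0.0286 is the smallest raw p that 3 against 4 libraries can give. A lone pair or gate at that p could not pass over 44 pairs or 5 gates, so no absence of a difference is read from this.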
